A study of Mus musculus with 12 samples.

Results

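The positions described here are 3′ UTR positions where a peak of hnRNP H binding was listed after methamphetamine and not, at the same place, after saline. The RNA fragments that hnRNP H, an RNA-binding protein of the nucleus and cytoplasm, was cross-linked to were recovered from striatal tissue with an antibody to it and sequenced (CLIP-seq). The authors deposited 1 list of 100 nt peak positions per treatment. A position was taken when it stood in the methamphetamine list, was absent at the same chromosome, start and strand from the saline list, and had its midpoint in a 3′ UTR line of the deposited annotation. Of 14711 distinct positions in either list, 860 met this rule. The methamphetamine list held 1478 3′ UTR positions, so 618 others were in both lists, and 457 further 3′ UTR positions were in the saline list only.

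All animals were wild-type C57BL/6J mice aged 50 to 100 postnatal days, born to dams of that strain and sires that were heterozygous for an Hnrnph1 mutation. Every mouse was injected with saline on the first 2 days and, on day 3, with saline (10 ml/kg) or methamphetamine (2 mg/kg), and whole striata were taken 30 min later. Each library came from a pool of 4 mice, 2 females and 2 males, with 3 pools per treatment, and part of each pool was kept before cross-linking for RNA-seq. Striatal markers were present in every RNA-seq pool, with Drd1 at 7.11 to 7.46, Drd2 at 8.05 to 8.68 and Ppp1r1b at 10.7 to 11.7 log2 CPM (CPM, counts per 1000000 reads), and Hnrnph1 itself stood at 4.74 to 5.23.

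hnRNP H recognises runs of guanines through its quasi-RNA recognition motifs and is best known for setting splice site and polyadenylation site choice. In a 3′ UTR, the part of an mRNA after the stop codon, bound proteins can act on cleavage, stability, transport and translation. In striatum most cells are GABAergic medium spiny neurons that receive dopamine, whose release methamphetamine raises.

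Sites with runs of G are shown for 10 of the positions. They were chosen because GGGG was the word of 4 bases most enriched over other windows of the host 3′ UTRs. That ranking was made on 557 positions, 1 per host gene. Each line gives 30 nt around the longest run of the 100 nt window, 5′ to 3′ on the transcript strand, read from GENCODE M21 transcripts (GRCm38), and capitals mark runs of 3 or more G. The first 4 are among the positions with the most reads, Hnrnpa0 is an RNA-binding protein, the next 3 lie in genes of neuronal signalling, Camk2n1 is a gene with 7 positions, and Mog, a myelin gene, has the longest run of those shown. The Camk2n1 site shown lies in a position without a line in the count table. The 10 do not stand for all positions, since GGGG was in 43.8% and GGG in 74.9% of the 797 with sequence.
Eif4a1, chr11:69667388-69667417, minus strand: ggaagagctggaGGGGGGaGGGGaGGGagc
Ddx6, chr9:44639527-44639556, plus strand: ggcccggtGGGGtGGGGtGGGGtGGGctgg
Psap, chr10:60302257-60302286, plus strand: ggtaGGGtGGGGaGGGGaaacttgtgaatg
Ppp1r9b, chr11:95005977-95006006, plus strand: gtgattGGGcgtcGGGGGaaGGGtcagtcc
Hnrnpa0, chr13:58127114-58127143, minus strand: tttgtgttttttGGGGGGGcGGGtGGGcgg
Gnaq, chr19:16384843-16384872, plus strand: ttGGGGGcGGGGaGGGGGcaGGGaatagtg
Mapk8ip1, chr2:92384025-92384054, minus strand: ctgtttcatgctaGGGGccctggctttctg
Pde1b, chr15:103527235-103527264, plus strand: atGGGactagaaGGGtgtgacttacactta
Camk2n1, chr4:138459049-138459078, plus strand: acGGGGtGGGGtGGGGGGactgcagaagag
Mog, chr17:37011083-37011112, minus strand: tatcaatgtGGGGGGGGGGGGGtcaggaac

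A single host gene was listed for 798 of them, giving 605 host genes, of which 491 held 1 position, 114 held 2 or more and 12 held 5 or more. A further 10 positions lay in 2 genes, and 52 lay in the 3′ UTR that the protocadherin gamma genes share, where each was listed for 22 genes. Joined where they touched or overlapped, the positions made 762 stretches covering 80606 nt, and 714 of these stretches were a single position. The gene with the most positions after the protocadherin cluster was Slc1a2, the main astrocyte glutamate transporter, with 12, followed by Camk2n1, an inhibitor of CaM kinase II, with 7, a number that Sept5 also reached.

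Many host genes were also in the saline list, at other places. Of the 605 host genes, 327 (54.0%) had some position in the saline list and 154 (25.5%) had a saline-list position in a 3′ UTR. Of the positions themselves, 35 (4.07%) overlapped a saline-list position on the same strand, 84 (9.77%) had a saline-list start exactly 100 nt away, which is the adjoining window, and 225 (26.2%) had one starting less than 500 nt away. In the protocadherin gamma 3′ UTR the windows of the 22 genes are offset from each other by a few nt, and 29 of the 35 overlapping positions were there. The windows in that 3′ UTR cover the same bases many times over and share reads, so they are not separate sites.

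The peak's strand disagreed with the listed 3′ UTR for 23 positions, in 22 host genes that had no other position. The position listed for Shisa6, for example, was called in Gm12296 on the other strand. Their signal values in the authors' deposited table had a median of 2.64, against 1.36 for the 837 positions on the strand of the 3′ UTR. Whether the authors' counting used strand is not given in the sources used here, so counts where genes overlap are uncertain.

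The authors' deposited table gives each position a signal value, whose scale is not given in the sources used here, and a q-value. In the authors' deposited table the median signal value was 1.37 for the 860 positions (lower quartile 1.19, upper quartile 1.65, highest 4.33), 1.64 for positions in both lists and 1.52 for those in the saline list only. Median q in the authors' deposited table was 0.00183, against 3.21e-06 for positions in both lists and 0.00111 for those in the saline list only. The share of positions with a q below 0.001 was 45.5%, 78.0% and 48.8% in the same order. For positions in both lists, the signal values and q-values used here are those of the methamphetamine list. Their median q in the saline list of the authors' deposited table was 3.555e-05. All listed q-values lay below 0.05. Just inside that threshold stood positions in Ppp2r5e (q = 0.04997), Haus7 (q = 0.04993) and Gpm6b (q = 0.04982) in the authors' deposited table. Just outside the rule, because the saline list also held them, were positions in Cx3cr1 (saline q = 0.04982), Calm3 (saline q = 0.04908) and Peg3 (saline q = 0.0489).

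Before the levels, 1 feature of the libraries has to be given. Saline replicates 1 and 3 and methamphetamine replicate 2 (set A) stood apart from saline replicate 2 and methamphetamine replicates 1 and 3 (set B) in both assays, so the sets cut across treatment. In RNA-seq, a pool's deviations from its treatment mean correlated at 0.43 to 0.67 with those of pools of the other treatment in its own set. CLIP correlations within sets were 0.40 to 0.47, apart from 0.10 between saline replicate 2 and methamphetamine replicate 3. The sets were defined from these data. CLIP reads in peak positions ranged from 423057 (saline replicate 2) to 1635338 (saline replicate 3) per library, and levels are given as CPM of these peak reads, so 1 read in saline replicate 2 is worth 2.36 CPM.

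A count was given for 671 of the 860 positions, and 189 (22.0%) had no line in the count table. The rule used this contrast, so the CLIP levels that follow are a description, with no test. Median levels over the 671 positions were 2.85, 2.36 and 3.67 CPM in saline replicates 1 to 3 and 15.4, 5.10 and 6.72 CPM in methamphetamine replicates 1 to 3. Methamphetamine replicate 1 stood highest, and replicates 2 and 3 lay nearer to the saline libraries than to it. The same medians over positions in both lists were 9.49, 14.2 and 12.2 CPM in saline and 18.7, 13.3 and 11.8 CPM after methamphetamine. Medians over positions of the saline list only were 5.70, 7.09 and 8.87 CPM in saline and 6.60, 7.14 and 5.04 CPM after methamphetamine.

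**Figure D1:**
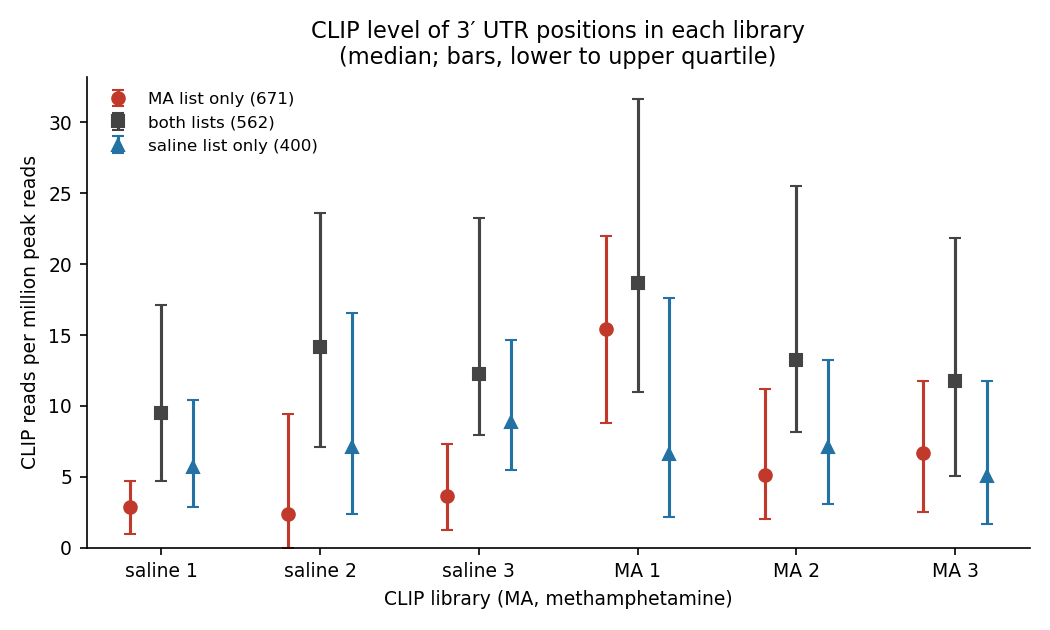
CLIP level (CPM of peak reads) of 3′ UTR positions in each of the 6 libraries, with the median as a symbol and bars from the lower to the upper quartile, for positions in the methamphetamine list only (671 with counts), in both lists (562) and in the saline list only (400). The positions of the methamphetamine list only have medians of 2.36 to 3.67 in saline and 5.10 to 15.4 after methamphetamine, with replicate 1 highest.

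Few of the positions lacked reads in saline. Only 28 of 671 (4.17%) had 0 reads in all 3 saline libraries, where the limit that a count of 0 allows is 2.85, 7.09 and 1.83 CPM in the respective libraries (3 reads each, counting error only). All 3 saline libraries had at least 1 read at 383 positions (57.1%), and 115 positions had over 3 reads in each of them. In the methamphetamine libraries 222 positions had over 3 reads in each library, and 85 had over 3 reads in all 6 libraries. The mean over saline libraries reached 10 CPM at 103 positions and 100 CPM at 7, and 55 positions (8.20%) had a methamphetamine mean at or below the saline mean.

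A single library held much of the signal at many positions. Over 50% of the CPM summed over 6 libraries came from 1 library at 258 positions (38.5%), and that library was methamphetamine replicate 1 at 211 of them, replicate 3 at 38 and replicate 2 at 3. The highest of the 6 values was in methamphetamine replicate 1 at 445 positions, in replicate 3 at 100, in replicate 2 at 54 and in saline replicates 2, 3 and 1 at 36, 24 and 12. The median log2 ratio of the methamphetamine mean over the saline mean, each with 0.5 CPM added, was 1.27, and it was 0.50 without methamphetamine replicate 1 and 1.52 without methamphetamine replicate 2. Within set A the median was 0.45 and within set B 1.62. Positions with a mean of at least 10 reads over 6 libraries had a median of 0.35.

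At 130 of the 671 positions (19.4%) all methamphetamine libraries lay above all saline libraries, and the same held for 3.56% of the 147438 positions of the count table and 2.65% of the 10358 that passed the count filter, a comparison from which nothing is read because the rule used this contrast. The protocadherin gamma 3′ UTR held 29 of the 130, and the other 101 were 15.8% of the 639 positions with counts elsewhere. Outside that 3′ UTR, 54 of the 101 had over 3 reads in each methamphetamine library. The count filter of edgeR passed 136 positions, some of them only through their methamphetamine reads, so no count over those 136 is given as support. Over all 10358 positions that passed, edgeR's quasi-likelihood test made 0 calls at an adjusted p of 0.05 (smallest adjusted p = 0.9998), with 347 (3.35%) at an unadjusted p under 0.05, and DESeq2 made 0 calls with 345. On simulated data edgeR recovered 0 of 200 changed positions at a log2 change of 2, so changes of that size could be missed.

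The 5 non-overlapping positions with the highest methamphetamine mean, 1 per host gene, with over 3 reads in each methamphetamine library, were chosen after their values were seen. They lay in Srrm2, Safb2, Adgrl1, Sept5 and Mid1. Srrm2, a large splicing coactivator, had 19.0, 18.9 and 16.5 CPM in saline and 39.6, 24.5 and 40.3 CPM after methamphetamine (18.1 ± 1.41 against 34.8 ± 8.93, SD, n = 3 each). Its saline pools were close together, and the lowest methamphetamine pool was the one of set A. Safb2, a scaffold attachment factor, had 8.54, 11.8 and 16.5 CPM in saline and 23.1, 18.4 and 40.3 CPM after methamphetamine. Adgrl1, the latrophilin adhesion receptor, had 7.60, 9.45 and 6.73 CPM in saline and 33.0, 17.3 and 30.2 CPM after methamphetamine. Sept5, a septin of synaptic vesicles, had 3.80, 9.45 and 9.78 CPM in saline and 23.1, 16.3 and 31.9 CPM after methamphetamine. In all 5, Mid1 included, the lowest of the methamphetamine values was that of replicate 2.

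Among the 10 positions with the highest methamphetamine mean, 1 per gene, of those with over 3 reads in each methamphetamine library, were those in Gabarapl1, Eif4a1, Ppp1r9b, Shisa6, Dynll2, Ddx6, Psap, Nyap1 and Sun2. At each of these 9 the treatments overlapped, and every saline library had reads. Gabarapl1, an autophagosome protein of the ATG8 family (chr6:129541261-129541360, plus strand, 144 nt into a 1179 nt 3′ UTR), had 193, 144 and 325 CPM in saline and 314, 292 and 197 CPM after methamphetamine, which is 221 ± 93.8 against 267 ± 62.2. The position is absent from the saline list although the highest value of the 6 is in a saline library. Eif4a1, an RNA helicase of translation initiation, had 33.2, 80.4 and 151 CPM in saline and 276, 90.8 and 176 CPM after methamphetamine, and its means differed most of the 9, by 2.05-fold.

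Ppp1r9b, which encodes spinophilin, a protein phosphatase 1 anchor in dendritic spines, had 132, 154 and 134 CPM in saline and 101, 130 and 249 CPM after methamphetamine. Only methamphetamine replicate 3 was above the saline range there. Dynll2, a dynein light chain, had 30.4, 156 and 108 CPM in saline and 253, 101 and 63.8 CPM after methamphetamine, a spread within each treatment wider than the difference of the means (98.0 ± 63.4 against 139 ± 100). Ddx6, an RNA helicase of mRNA decay, ranged from 54.1 to 168 CPM in saline and from 84.0 to 184 CPM after methamphetamine. Psap, the precursor of lysosomal saposins, ranged from 69.3 to 161 CPM and from 70.5 to 163 CPM. The pools of both treatments overlapped for both genes.

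Nyap1, a neuronal adaptor of PI3 kinase signalling, and Sun2, a protein of the inner nuclear membrane, had ratios of 1.12 and 1.01. The position listed for Shisa6, on the opposite strand to that gene, followed the library sets and not the treatment, with 220 and 226 CPM in saline replicates 1 and 3, 434 CPM in methamphetamine replicate 2, and 23.6, 9.90 and 13.4 CPM in saline replicate 2 and methamphetamine replicates 1 and 3. The direction at most of these 9 positions changed when a single library was left out. The log2 ratio was below 0 without methamphetamine replicate 1 for Dynll2 (-0.25), Psap (-0.06), Nyap1 (-0.13) and Sun2 (-0.28). It was also below 0 without methamphetamine replicate 3 for Ppp1r9b (-0.28) and without saline replicate 1 for Ddx6 (-0.01). For Shisa6 it was -0.04 over all libraries, 0.51 without methamphetamine replicate 1 and -3.69 without methamphetamine replicate 2.

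**Figure D2:**
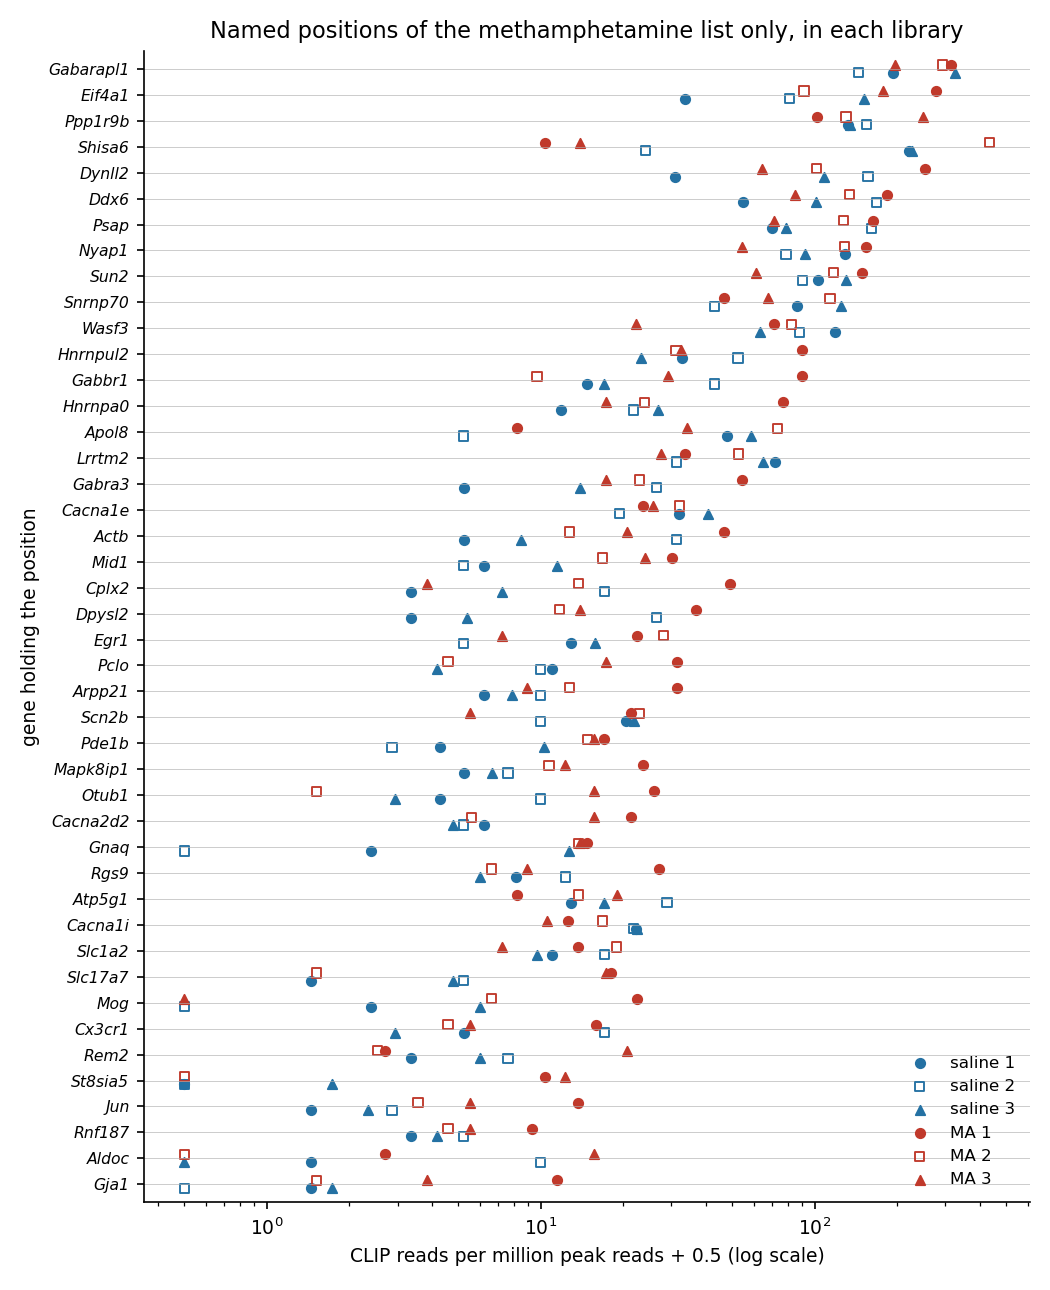
CLIP level (CPM of peak reads plus 0.5, log axis) of the named positions in each library, 1 row per position labelled by its host gene, with saline libraries in blue and methamphetamine libraries in red, ordered by the methamphetamine mean. The highest rows (Gabarapl1 to Sun2) have overlapping treatments, while Mid1, Pde1b, Mapk8ip1, Gnaq and Jun have all 3 methamphetamine values above the saline values.

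The 3 highest signal values of the authors' deposited table were 4.33 for Apol8, 4.29 for Chil1 and 4.19 for Pcdhb21. Their reads were few or did not follow the treatment. Apol8, an apolipoprotein L family gene, had 47.5, 4.73 and 58.1 CPM in saline and 7.70, 72.5 and 33.6 CPM after methamphetamine. The positions in Chil1, a chitinase-like protein, and Pcdhb21, a protocadherin beta, had 9 and 8 reads in methamphetamine replicate 1 and 0 reads in each of the other 5 libraries. With RNA levels of 1.53, 2.46 and 3.02 log2 CPM, all 3 host genes were below the median of all genes (3.44).

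Cacna2d2 encodes an auxiliary subunit of voltage-gated calcium channels that raises their surface level and is the target of gabapentinoids. Its 1 position (chr9:107528513-107528612, plus strand, 1099 nt after the stop codon of a 1879 nt 3′ UTR) had 5.70, 4.73 and 4.28 CPM in saline, which were 6, 2 and 7 reads. After methamphetamine it had 20.9, 5.10 and 15.1 CPM, from 19, 5 and 9 reads. Methamphetamine replicate 2 was within the saline range, and the other 2 pools, both of set B, were above it. The means were 4.90 ± 0.724 and 13.7 ± 7.99 CPM (SD, n = 3 each), a 2.80-fold ratio, and the log2 ratio lay between 0.97 and 1.78 as each library was left out. The longest run of G in this window was 2 nt. The nearest saline-list position on the same strand started 52115 nt away.

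Of the 48 medium spiny neuron and dopamine signalling genes in the RNA-seq table, 12 (25%) hosted positions, beside 3.30% of all 18208 genes and 9.36% of the 4552 genes above the upper quartile of RNA level. They were Arpp21, Pde1b, Cacna2d2, Rgs9, Pde10a, Bcl11b, Penk, Rasd2, Adora2a, Adcy5, Pde2a and Scn4b. The list's median level was 7.76 log2 CPM, above that quartile of 5.34 log2 CPM, so the 9.36% is not matched for RNA level. The list also holds Cacna2d2, which was to be named whatever its values. In it, 9 genes hosted a 3′ UTR position in both lists and 6 one in the saline list only. Over all genes of the RNA-seq table, 600 hosted the positions described here, 434 hosted positions in both lists and 377 positions in the saline list only. Pde1b, a calmodulin-dependent phosphodiesterase that breaks down cyclic nucleotides, had 3.80, 2.36 and 9.78 CPM in saline and 16.5, 14.3 and 15.1 CPM after methamphetamine. Its methamphetamine pools were close together and above all saline pools. Arpp21, a cAMP-regulated phosphoprotein that binds RNA, had 5.70, 9.45 and 7.34 CPM in saline and 30.8, 12.2 and 8.40 CPM after methamphetamine. Rgs9, the GTPase activator that shortens dopamine receptor signalling, had 8.31 ± 3.22 CPM in saline and 13.6 ± 11.1 after methamphetamine, with only replicate 1 above the saline range.

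Genes of both sides of the synapse were among the hosts. The shares for these and the following lists stand beside the same 3.30% of all genes and 9.36% of genes above the upper quartile of RNA level. Of 77 vesicle release genes, 14 (18.2%) hosted 25 positions, among them Cplx2, Pclo, Slc17a7, Vamp2, Snap25, Dnm1 and Unc13a. Positions in both lists had 3 hosts among the 77 and those in the saline list only 6. Cplx2, a complexin that clamps and primes SNARE complexes, had 2.85, 16.5 and 6.73 CPM in saline and 48.4, 13.3 and 3.36 CPM after methamphetamine, with replicate 1 alone above the saline range and a 2.49-fold ratio of means. Of 90 postsynaptic and receptor genes, 11 (12.2%) were hosts, Shisa6 on the opposite strand included. Positions in both lists had 12 hosts there and those in the saline list only 8. Gabra3, a GABA-A receptor subunit, had 4.75, 26.0 and 13.5 CPM in saline and 53.9, 22.5 and 16.8 CPM after methamphetamine. Gabbr1, a GABA-B receptor subunit, had 24.4 ± 15.7 against 42.3 ± 41.7 CPM, and Lrrtm2, a postsynaptic adhesion protein, had 55.4 ± 21.6 against 37.3 ± 13.1 CPM, lower after methamphetamine at a position of the methamphetamine list only.

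Of 88 voltage-gated channel genes, 14 (15.9%) were hosts, beside 6 hosts of positions in both lists and 8 of the saline list only. Some positions of the 14 did not have higher reads after methamphetamine. Cacna1i, a T-type calcium channel, had 21.8, 21.3 and 22.0 CPM in saline and 12.1, 16.3 and 10.1 CPM after methamphetamine, with every methamphetamine pool below every saline pool, as at 2 of the 671 positions (0.298%), beside 2.07% of all 147438 positions of the count table, from which nothing is read because the rule used this contrast. Cacna1e, an R-type calcium channel, had 30.2 ± 10.8 against 26.6 ± 4.45 CPM. Scn2b, a sodium channel beta subunit, had 16.9 ± 6.52 against 16.1 ± 9.64 CPM. In the authors' deposited table these 3 had q-values of 1.88e-09, 1.53e-11 and 6.55e-15.

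RNA-binding proteins and splicing factors hosted 24 positions in 18 of 109 genes (16.5%), among them Snrnp70, Hnrnpul2, Hnrnpa0, Srsf1, Hnrnpd, Hnrnpl and U2af2. Positions in both lists had 19 hosts among the 109 and those in the saline list only 9. Snrnp70, a protein of the U1 small nuclear ribonucleoprotein, had 85.4, 42.5 and 124 CPM in saline and 46.2, 113 and 67.2 CPM after methamphetamine, high in set A and lower in set B. Hnrnpa0, a stress-responsive hnRNP, had 11.4, 21.3 and 26.3 CPM in saline and 75.9, 23.5 and 16.8 CPM after methamphetamine. Hnrnpul2, an hnRNP U paralogue, had 35.6 ± 15.0 against 50.5 ± 33.4 CPM at a position that was called in an overlapping gene. Replicate 1 alone was above the saline range in both hnRNP genes.

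Kinases, phosphatases and second messenger genes hosted 27 positions in 18 of 130 genes (13.8%), beside 15 hosts of positions in both lists and 15 of the saline list only. Mapk8ip1, the scaffold of JNK signalling, had 4.75, 7.09 and 6.11 CPM in saline and 23.1, 10.2 and 11.8 CPM after methamphetamine. Gnaq, the alpha subunit of the Gq protein, had 1.90, 0 and 12.2 CPM in saline and 14.3, 13.3 and 13.4 CPM after methamphetamine. The pools of both genes did not overlap, though saline replicate 3 of Gnaq came close to the methamphetamine pools. Cytoskeleton and axonal transport genes had 32 positions in 19 of 90 genes (21.1%), Nefm on the opposite strand included. Positions in both lists had 12 hosts there and those in the saline list only 9. Actb, cytoplasmic actin, had 14.5 ± 14.2 against 26.2 ± 17.8 CPM, Dpysl2, a collapsin response mediator, had 11.2 ± 12.8 against 20.3 ± 13.9 CPM, and Wasf3, an actin nucleation promoter, had 89.2 ± 27.7 against 58.0 ± 31.8 CPM.

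Of 20 activity-induced immediate early genes, 2 were hosts, beside 2 hosts of positions in both lists and 1 of the saline list only. Egr1, a zinc finger transcription factor, had 12.3, 4.73 and 15.3 CPM in saline and 22.0, 27.6 and 6.72 CPM after methamphetamine. Jun, a subunit of AP-1, had 0.949, 2.36 and 1.83 CPM in saline (1, 1 and 3 reads) and 13.2, 3.06 and 5.04 CPM after methamphetamine (12, 3 and 3 reads). The Jun pools did not overlap, at 3 reads in 2 of the methamphetamine libraries. Ubiquitin and proteasome genes had 3 hosts of 60 (Otub1, Rnf187, Usp22), and oxidative phosphorylation genes had 2 of 48 (Atp5g1, Cox8a). These shares of 5% and 4.17% lay between the 3.30% of all genes and the 9.36% of genes above the upper quartile of RNA level (5.34 log2 CPM). The median levels of the 2 lists, 6.35 and 5.75 log2 CPM, were above that quartile. Positions in both lists had 5 and 0 hosts in these lists, and those in the saline list only 3 and 0. Otub1, a deubiquitinase, had 5.23 ± 3.72 against 13.8 ± 12.2 CPM, Rnf187, a ubiquitin ligase, 3.75 ± 0.942 against 5.97 ± 2.49 CPM, and Atp5g1, a subunit of the ATP synthase ring, 19.1 ± 8.31 against 13.1 ± 5.39 CPM. Usp22, a deubiquitinase of the SAGA complex, and Cox8a, a cytochrome oxidase subunit, had no line in the count table.

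Glial transcripts also carried positions. Astrocyte markers had 4 hosts of 12, with 16 positions in Slc1a2, Aldoc, Gja1 and Glul, beside 3 hosts of positions in both lists and 2 of the saline list only. The 12 positions of Slc1a2 ran along its 9250 nt 3′ UTR (chr2:102781760-102790659, plus strand), and 2 of them had counts. The higher of these had 10.4, 16.5 and 9.17 CPM in saline and 13.2, 18.4 and 6.72 CPM after methamphetamine, with the treatments overlapping. Gja1, connexin 43, had 0.724 ± 0.642 against 5.13 ± 5.22 CPM, and Aldoc, aldolase C, had 3.47 ± 5.21 against 5.77 ± 8.17 CPM. Glul, glutamine synthetase, had no line in the count table. Oligodendrocyte markers had 2 hosts of 12, beside 3 hosts of positions in both lists and 4 of the saline list only. Mog, a myelin surface glycoprotein, had 1.90, 0 and 5.50 CPM in saline and 22.0, 6.12 and 0 CPM after methamphetamine. It was highest in replicate 1 and at 0 in replicate 3. Among microglia markers, 1 of 12 was a host (Cx3cr1, the fractalkine receptor, 7.91 ± 7.56 against 8.17 ± 6.28 CPM), and so was 1 of 12 cortical excitatory neuron markers (Slc17a7, a vesicular glutamate transporter, 3.32 ± 2.06 against 11.8 ± 9.35 CPM). Positions in both lists had 1 microglia and 1 cortical host, and those in the saline list only 0 and 1. None of the 12 endothelial or 12 choroid plexus markers was a host.

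The protocadherin gamma 3′ UTR, shared by neuronal adhesion molecules that give cells a surface identity, held 52 positions, with counts for 32 of them. Their median reads were 0, 1 and 5 in saline and 21.5, 9 and 3 after methamphetamine, or 0, 2.36 and 3.06 CPM against 23.7, 9.18 and 5.04 CPM. Because reads of this 3′ UTR cannot be divided among the 22 genes and the windows overlap, these values describe 1 stretch of RNA. Camk2n1 had counts for 2 of its 7 positions. The higher had 6.65, 7.09 and 8.56 CPM in saline and 24.2, 14.3 and 8.40 CPM after methamphetamine, with replicate 3 within the saline range.

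Runs of G were more frequent in the positions than in other windows of the same 3′ UTRs. Sequence was read for the 797 positions (92.7%) that lay whole in 1 exon of a GENCODE M21 3′ UTR. A GGGG on the transcript strand was present in 349 of them, or 43.8% (Wilson 95% interval 40.4 to 47.3), and a GGG, which every GGGG contains, in 74.9% (71.8 to 77.8). Among the 11883 other 100 nt windows of the host 3′ UTRs, 27.6% held GGGG and 66.5% held GGG, and among all 300561 windows of M21 3′ UTRs the shares were 21.8% and 59.7%. Runs of 5 or more G were in 19.6% of the positions, 8.39% of the other host windows and 5.97% of all windows. These intervals cover counting error only, and neighbouring windows of a gene are not independent.

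Taking 1 position per host gene, the one with the highest methamphetamine mean, gave GGGG in 47.0% of 557 (42.9 to 51.2). Of all 256 words of 4 bases, GGGG had the highest ratio of its share in these 557 positions to its share in other windows of the host 3′ UTRs, at 1.71. Second came CGGG at 1.61, from 16.5% against 10.3%. The complementary word CCCC was in 34.6% of the 797 positions (31.4 to 38.0) against 28.8% of other host windows, 24.9% of positions in both lists (21.5 to 28.5) and 26.9% of those in the saline list only (22.8 to 31.3). CCCC was as frequent in windows shifted by 500 nt from the positions (35.6%, 32.2 to 39.2). The polyadenylation signal AATAAA was in 5.65% of positions against 5.04% of other host windows. A match is a description of the letters in the window and marks no binding site.

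GGGG was in 48.5% of 579 positions in both lists (44.5 to 52.6) and in 43.6% of 417 positions in the saline list only (39.0 to 48.4), and both intervals overlap that of the methamphetamine list only. Windows shifted by 500 nt within the same 3′ UTR held GGGG in 34.1% of 707 cases (30.7 to 37.7), against 43.1% at the unshifted positions of the same 707. The shares changed from 48.5% to 27.5% on shifting for positions in both lists and from 43.4% to 25.1% for the saline list only. The shifted windows of the methamphetamine list only include overlapping windows of the protocadherin gamma 3′ UTR, and the classes were not compared by a test. Positions with over 3 reads in each methamphetamine library held GGGG in 48.0% of 204, positions with over 50% of their CPM in methamphetamine replicate 1 in 43.8% of 201, the other positions with counts in 46.9% of 418, and positions without a count line in 36.5% of 178.

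**Figure D3:**
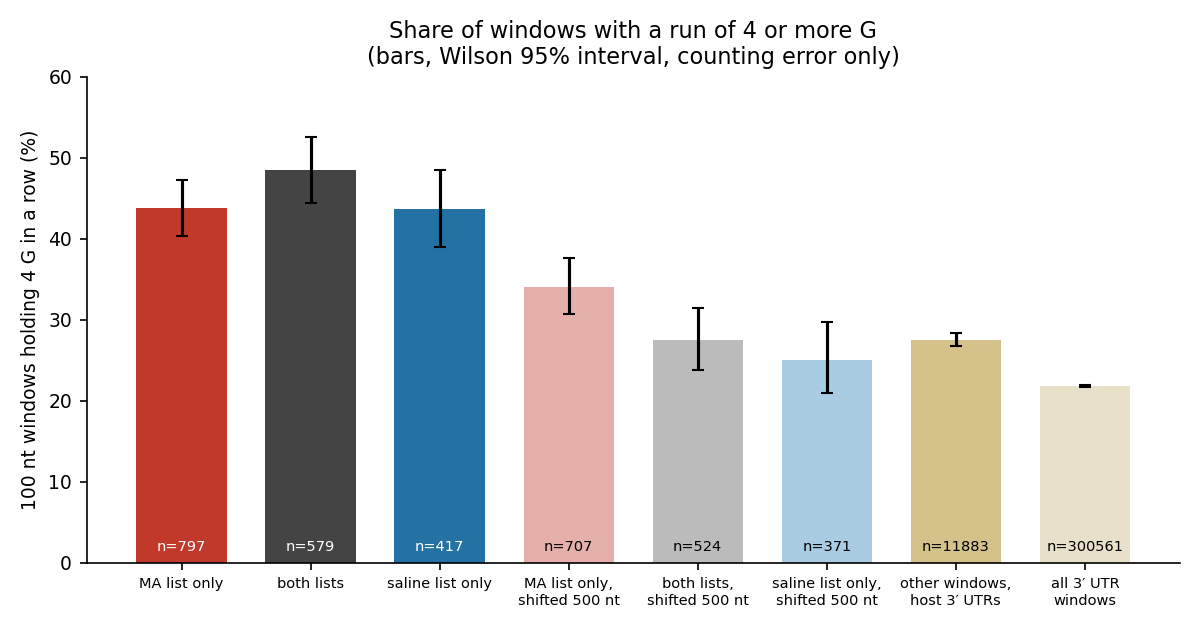
Share of 100 nt windows (percent, with Wilson 95% intervals) that hold a run of 4 or more G, for 3′ UTR positions of each class, for windows shifted by 500 nt within the same 3′ UTR, for the other windows of the host 3′ UTRs and for all 3′ UTR windows of GENCODE M21. Positions of the methamphetamine list only stand at 43.8%, their shifted windows at 34.1% and other host windows at 27.6%.

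The runs were placed around and upstream of the centre of the window. The share of bases lying in runs of 3 or more G was 8.29%, 7.26%, 9.08%, 8.67% and 8.01% in the 20 nt bins from 80 nt upstream to 19 nt downstream of the centre. From 20 to 39 nt downstream it was 6.00%, and it was 5.21% from 40 to 59 nt, 6.50% from 60 to 79 nt and 5.55% at the outermost downstream bin. The highest bins of the other classes were also upstream of the centre, at 11.4% for positions in both lists (80 to 61 nt upstream) and 9.87% for the saline list only (40 to 21 nt upstream).

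**Figure D4:**
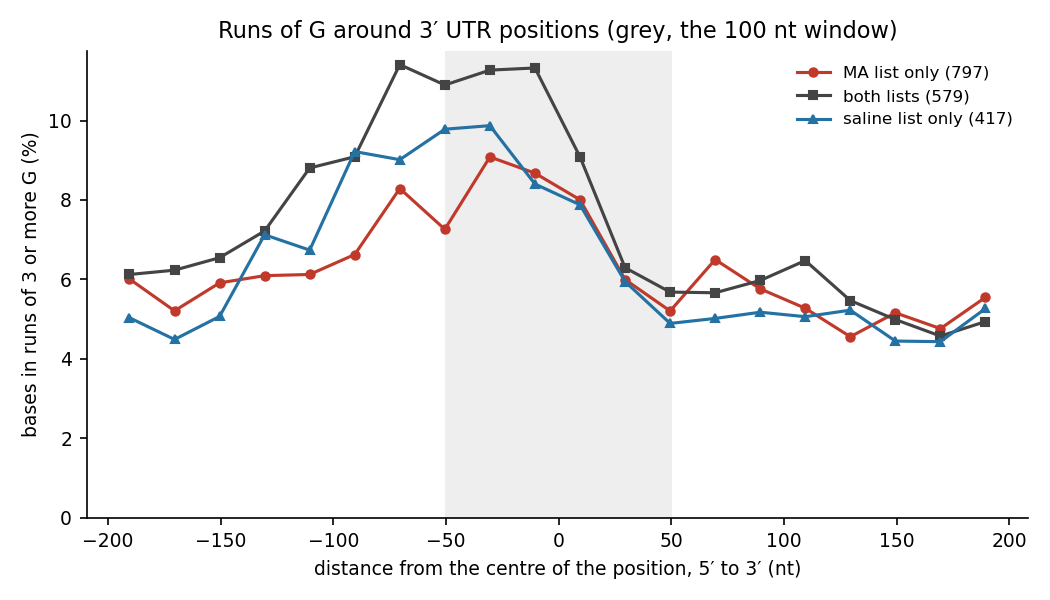
Share of bases lying in runs of 3 or more G (percent) in 20 nt bins by distance from the centre of the position (nt, 5′ to 3′), for the 797, 579 and 417 3′ UTR positions of the 3 classes with sequence; grey marks the 100 nt window. In the positions of the methamphetamine list only, the curve peaks at 9.08% from 40 to 21 nt upstream and falls to 5.21% from 40 to 59 nt downstream.

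Along the 3′ UTR the positions were spread much like the other classes. Over the 837 placed in a GENCODE M21 3′ UTR, the median 3′ UTR was 2081 nt long, with the position 822 nt after the stop codon and 951 nt before the transcript end. Split into 3 equal parts from the stop codon, the 3′ UTR held 38.0%, 33.1% and 28.9% of them in the first, middle and last, 15.2% lay within 200 nt of the stop codon and 14.7% within 200 nt of the end. For positions in both lists these parts held 37.1%, 32.8% and 30.0%, and for the saline list only 35.4%, 33.6% and 31.1%. Host genes had long 3′ UTRs, with a median of 2077 nt over 557 genes against 954 nt over 21112 genes of the annotation. The other classes had them too, with medians over positions of 2068 nt in both lists and 2177 nt in the saline list only, beside 2081 nt. A longer 3′ UTR offers more windows that can be listed. Longer 3′ UTRs were also preferred where several transcripts held a position, so nothing is read from the difference from the annotation.

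The rule itself takes no RNA-seq values, and the host genes were tested in RNA-seq of the same pools. The RNA-seq samples are titled INPUT, and whether their reads entered the authors' peak calls is not given in the sources used here. The RNA-seq is therefore not known to be independent of the peak lists. In bulk tissue, fewer cells of a type and less RNA per cell cannot be told apart. Of the 605 host genes, 600 were in the RNA-seq table, and they were abundant. Their median was 6.80 log2 CPM (quartiles 5.06 and 8.29) against 3.44 for all 18208 genes, and 426 of them (71%) were above the upper quartile of all genes. Hosts of positions in both lists had a median of 6.09 and hosts of the saline list only 5.75.

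No host gene passed the test for a change in RNA level 30 min after methamphetamine. On simulated data limma recovered 0 of 200 changed genes at a log2 change of 1, so changes of that size could be missed. limma on all 18208 genes made 0 calls at an adjusted p of 0.05 (0% called, smallest adjusted p = 0.9998), with an unadjusted p under 0.05 for 276 genes, and edgeR on reads recovered from the deposited values made 0 with 109. Of the host genes 5 (0.833%) had an unadjusted limma p under 0.05, against 1.52% of all genes, and the p-values measure the spread between pools. The count moved with single libraries, to 0 without saline replicate 1, 24 without saline replicate 2, 10 without saline replicate 3, 28 without methamphetamine replicate 2 and 3 without methamphetamine replicate 3. Whether the share was smaller among hosts than among all genes depended on the setting. Without any 1 library it was smaller among hosts, with a mean log2 CPM above 1 it was 0.850% against 0.849%, and with edgeR on recovered reads it was larger, at 7 of 587 hosts (1.19%) against 0.820%. Of these 5, 3 had higher and 2 lower values after methamphetamine, against 0.555% and 0.961% of all genes. All methamphetamine pools were above all saline pools for 12 hosts (2%, against 2.44% of all genes) and below for 14 (2.33%, against 3.58%). The median log2 change of the hosts was 0.01 (quartiles -0.10 and 0.14) and that of all genes 0.00 (quartiles -0.21 and 0.19). Within set A the hosts' median was -0.01 and within set B 0.01.

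The 3 host genes with the smallest p were Mid1, Rem2 and St8sia5. Mid1, a microtubule-bound ubiquitin ligase, had an RNA level of 4.57, 4.32 and 5.20 log2 CPM in saline and 5.30, 6.60 and 5.36 after methamphetamine, a log2 change of 1.06 ± 0.36 (SE; limma adjusted p = 0.9998, unadjusted p = 0.0176). Its pools did not overlap in RNA. At its position (chrX:169990700-169990799, plus strand, 48 nt from the transcript end) the CLIP level was 5.70, 4.73 and 11.0 CPM in saline and 29.7, 16.3 and 23.5 CPM after methamphetamine, so RNA and CLIP reads were both higher in every methamphetamine pool. The Mid1 gene crosses the pseudoautosomal boundary of the X chromosome in this strain, where copies of its sequence on X and Y can share reads. The RNA change was 0.63 without methamphetamine replicate 2, the pool with the highest Mid1 level and with choroid plexus markers summing to 5389 CPM. The part of either in the Mid1 values was not tested.

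Rem2, a small GTPase that lowers calcium channel activity, had 6.26, 5.76 and 6.05 log2 CPM in saline and 5.42, 5.71 and 5.29 after methamphetamine, a log2 change of -0.55 ± 0.19 (SE; limma adjusted p = 0.9998). Its RNA level in every methamphetamine pool was below every saline pool, while its CLIP position had 2.85, 7.09 and 5.50 CPM in saline and 2.20, 2.04 and 20.2 CPM after methamphetamine. St8sia5, a ganglioside sialyltransferase, had 4.46, 5.14 and 4.34 log2 CPM in saline and 5.43, 4.96 and 5.90 after methamphetamine, a log2 change of 0.78 ± 0.29 (SE; limma adjusted p = 0.9998). Its position had 0, 0 and 2 reads in saline and 9, 0 and 7 after methamphetamine, so the set A pool of the methamphetamine group had none. Cacna2d2 RNA stood at 7.14, 7.23 and 7.01 log2 CPM in saline and 6.88, 6.94 and 6.90 after methamphetamine, a log2 change of -0.22 ± 0.14 (SE; limma adjusted p = 0.9998).

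**Figure D5:**
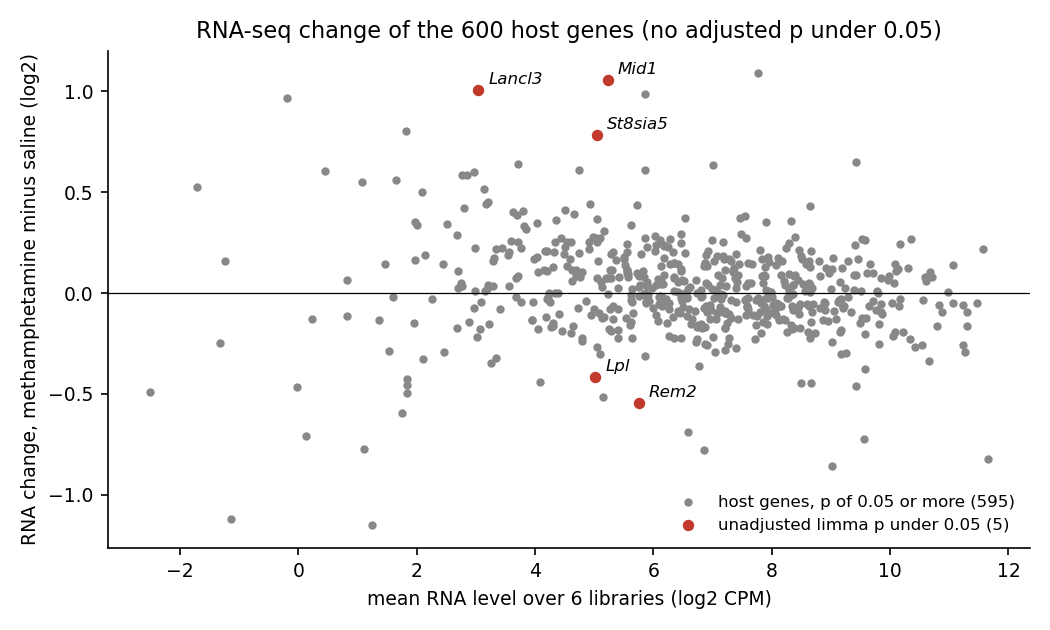
RNA-seq change of the 600 host genes (log2, methamphetamine minus saline) against their mean RNA level over 6 libraries (log2 CPM), 1 point per gene, with the 5 genes at an unadjusted limma p under 0.05 in red and named. The points centre on 0 (median 0.01) over the range of levels, and none has an adjusted p under 0.05.

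No host gene of any of the 16 lists had an unadjusted RNA p under 0.05. Over whole lists, genes at that level were 1 of 77 for vesicle release, 1 of 90 for the cytoskeleton and 3 of 20 for immediate early genes, all higher after methamphetamine, and 1 of 88 for channels, lower. The cortical and choroid plexus markers had 1 of 12 and 2 of 12 with higher values. Over all genes 1.52% were at that level in either direction, 0.555% with higher and 0.961% with lower values, and nothing is read from these counts. The median RNA log2 change of the 12 medium spiny neuron hosts was -0.22 (whole list -0.19), and that of the 14 vesicle release hosts 0.12 (whole list 0.11). Medians over hosts of the postsynaptic, channel, RNA-binding, kinase, cytoskeleton, immediate early, ubiquitin and oxidative phosphorylation lists lay between -0.04 and 0.15, and those of astrocyte and microglia markers were 0.19 and 0.08. Slc17a7 RNA was 7.44, 8.40 and 5.84 log2 CPM in saline and 8.09, 7.81 and 9.05 after methamphetamine, which overlap.

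Markers of other cell types varied between pools beside these values. Summed CPM of the 12 oligodendrocyte markers ranged from 5392 to 13060 in saline and from 8498 to 12994 after methamphetamine, beside an RNA log2 change of 0.61 for Mog. The 12 cortical markers summed to 1256 to 1590 and 1432 to 1694, the 12 astrocyte markers to 3201 to 4901 and 3246 to 5187, and the medium spiny neuron list to 20032 to 26728 and 17928 to 23837 in the same order. Microglia markers summed to 366 to 449 and 366 to 470, and endothelial markers to 168 to 311 and 204 to 347. The 12 choroid plexus markers summed to 149 to 290 in saline, 188 and 290 in methamphetamine replicates 3 and 1, and 5389 in replicate 2, where 2 of them had an unadjusted p under 0.05 across treatments. The lowest mean of any marker in these lists was -0.01 log2 CPM, for a choroid plexus gene. The part of cell composition in the values of the host genes was not tested.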

How the data were processed

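CLIP-seq and RNA-seq were made from the same 3 pools per treatment. The submitters' processing notes name Trimmomatic, UMI-tools, STAR, bedtools, Subread, featureCounts, limma, edgeR and mm10, and how peaks were called is not given in the sources used here. The authors deposited peak lists per treatment with a signal value (a score) and q-values, read counts per peak and library, and log2 CPM per gene. Because peaks were listed per treatment, the lists carry no replicate information. Reads per peak were scaled to the library's peak reads, with 0.5 CPM added for ratios. Counts of all distinct positions were tested with edgeR 4.0.16 (quasi-likelihood, TMM, filterByExpr) and the deposited log2 values of all 18208 genes with limma 3.58.1 (mean-variance trend), both with Benjamini-Hochberg adjustment. Alternatives used DESeq2 1.42.0 and edgeR on RNA reads recovered from the log2 values (100% whole within 0.05 reads, 3935160 to 5091839 per library). Sequences came from GENCODE M21 transcripts. Both tests were tested on simulated data. limma recovered 0 of 200 changed genes at a log2 change of 1 and 144 at 2 (18208 genes), and edgeR 0 of 200 CLIP positions at 2 (9065) and 179 at 4 (8870).

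Named were Cacna2d2, the 10 positions with the most methamphetamine CPM (over 3 reads in each of those libraries, 1 per gene), the 3 highest signal values, the 3 genes with the most positions, up to 4 hosts of each of 16 gene lists by methamphetamine CPM, and the 3 hosts with the smallest RNA p. The members and the lists were chosen with earlier results of these data known. A few items that this rule names are not reported here.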

Additional observations from a re-analysis of the deposited data

How the results depend on the processing

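The number of positions, 860, became 248 when only signal values at or above the list median were kept and 3375 when every line of the list was counted, and lay between 590 and 844 under the other alternatives. The median CLIP log2 ratio of 1.27 became 0.346 over positions with a mean of at least 10 reads, and ranged from 0.501 to 1.52 as each library was left out. edgeR called 0 CLIP positions, and 414 of 140449 without the count filter. Hosts with an unadjusted RNA p under 0.05 (5) became 2 without the trend and 12 with library set as a covariate, and ranged from 0 to 28 as each library was left out. GGGG was in 43.8% of positions, 27.7% by the central 50 nt and 48.0% with over 3 reads in each methamphetamine library, and GGG was in 74.9%. The causes were not tested. Alternatives for the strand and the library sets were chosen after seeing the data. Leaving out 1 library changed the sign of the median host RNA log2 change (0.00701), to -0.0273 without methamphetamine replicate 3 and -0.00109 without saline replicate 3 (highest 0.0333), and of several single CLIP ratios, such as Dynll2 (0.505 to -0.248), Ppp1r9b (0.192 to -0.276) and Shisa6 (-0.0387 to 0.513 without methamphetamine replicate 1). With 1 library left out, edgeR and limma made 0 calls at an adjusted p of 0.05. The 414 calls came only without the count filter, and how many of them are positions described here is not given.

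Same-numbered pools did not deviate together (r from -0.821 to -0.346 in RNA-seq and -0.549 to -0.082 in CLIP). Each same-numbered pair has 1 pool in set A and 1 in set B, so these values cannot show whether the numbers pair the pools. The main tests used no pairing. With a replicate block, edgeR and limma again called 0 CLIP positions and 0 genes (127 and 144 at an unadjusted p under 0.05), and 2 hosts had an unadjusted RNA p under 0.05.

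Saline replicate 2 has the fewest peak reads (423057), and a count of 0 there allows up to 7.09 CPM.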
